A study of Homo sapiens with 8 samples.

Results

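The genes that write and erase DNA methylation were followed in human lung cancer cells that had been given miR-29a-3p, a microRNA. The group holds 8 genes, chosen by name for their known function, out of 31461 genes in the table. They are the methyltransferases DNMT1, DNMT3A and DNMT3B, the methyltransferase partner UHRF1, the oxidising enzymes TET1, TET2 and TET3, and the DNA glycosylase TDG. The 8 RNA-seq libraries came from the non-small cell lung cancer lines A549 and H1299, both labelled wild type, and fell into 4 groups of 2. They were A549 transfected with miR-29a-3p, A549 transfected with a control microRNA, H1299 transfected with miR-29a-3p and H1299 transfected with the control. The study's stated aim was to look for target genes of this microRNA. The sources used here give no dose, no time after transfection and no sequence of the control RNA. No untransfected cells were analysed here.

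DNA methylation is placed on cytosines of CG pairs. DNMT3A and DNMT3B set new marks, and DNMT1 copies them onto the new strand behind the replication fork, where UHRF1 binds hemimethylated DNA and brings DNMT1 in. The TET enzymes oxidise methylcytosine stepwise, and TDG cuts out the most oxidised forms so that base excision repair can restore a plain cytosine. miR-29 microRNAs are known to bind the 3′ untranslated regions of several of these messengers, writers and erasers alike, and in lung cancer cells they are known to target DNMT3A and DNMT3B.

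The seed of miR-29a-3p, which pairs with its targets, covers bases 2 to 8 and is shown in capitals in the mature sequence (RefSeq, GRCh38.p14).
miR-29a-3p (chr7:130876748-130876769, minus strand): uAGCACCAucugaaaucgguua
The complement of this seed was searched for in the longest annotated 3′ UTR of each gene (GENCODE release 29, GRCh38). A 7mer-m8 match is TGGTGCT, an 8mer is the same word followed by A, a 7mer-A1 is GGTGCTA and a 6mer is GGTGCT. TET3 held 10 matches of the 8mer or 7mer-m8 kind in 6000 bases of 3′ UTR, 3 of them 8mers. TDG held 3 in 1784 bases, TET1 3 in 2668, DNMT3A 4 in 6424, and TET2 and DNMT3B held 1 each. DNMT1 held no match of any kind in its 321 bases, and UHRF1 held a single 6mer in 1351. Of the 11632 tested genes with an annotated 3′ UTR, 16.4% held at least 1 such 8mer or 7mer-m8 and 2.77% held 2 or more, in UTRs of 1355.5 bases at the median.

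The sites printed are matches of the genes that fell in both lines (2 of 3 for TDG, 6 of 10 for TET3 and the 1 of TET2), followed by the 8mer of DNMT3B and 1 site each of DNMT3A and TET1. Each line ends with the base opposite the first base of the microRNA, and the capitals mark the match.
TDG, 7mer-m8 at base 878 (chr12:103987946-103987975, plus strand): tatttgatactctcatttaaacTGGTGCTt
TDG, 8mer at base 1064 (chr12:103988132-103988161, plus strand): tgattttctaatgagttttccaTGGTGCTA
TET3, 7mer-m8 at base 1070 (chr2:74103224-74103253, plus strand): aacccaagctgtgaaaagccagTGGTGCTc
TET3, 7mer-m8 at base 1084 (chr2:74103238-74103267, plus strand): aaagccagtggtgctctgtgcaTGGTGCTg
TET3, 7mer-m8 at base 1101 (chr2:74103255-74103284, plus strand): gtgcatggtgctgtgcggagccTGGTGCTg
TET3, 8mer at base 3249 (chr2:74105403-74105432, plus strand): cagcaggttctcacaaaataacTGGTGCTA
TET3, 8mer at base 3808 (chr2:74105962-74105991, plus strand): aattgaaatagtctaaataaaaTGGTGCTA
TET3, 8mer at base 4472 (chr2:74106626-74106655, plus strand): gccactgaggctgctttttagtTGGTGCTA
TET2, 7mer-m8 at base 4871 (chr4:105242289-105242318, plus strand): tgttttttaaacaagcagtaggTGGTGCTt
DNMT3B, 8mer at base 1202 (chr20:32809083-32809112, plus strand): taacaccttttactcttcttacTGGTGCTA
DNMT3A, 7mer-m8 at base 862 (chr2:25233410-25233439, minus strand): actgtacaacccgacttcataaTGGTGCTt
TET1, 7mer-m8 at base 283 (chr10:68692075-68692104, plus strand): accttgatagaatcactcagttTGGTGCTt
The TET3 matches at bases 1070, 1084 and 1101 stand so close together that their windows overlap. The DNMT3B 8mer was present in 4 of 6 annotated coding transcripts with a 3′ UTR, and the TET2 match in 2 of 5. The TET2 match ends at base 105242318 of chr4, well before the annotated end of the gene at base 105279816. Only the longest 3′ UTR was searched, so TET2 transcripts with another 3′ UTR may hold other matches or none. The TDG matches at 878 and 1064 were in 1 of 3 each, while the TDG 7mer-m8 at base 4, not printed, was in 3 of 3. The DNMT3A match at 862 was in 3 of 5, and its other 7mer-m8 matches, not printed, were in 1 of 5 each. The deposited values are per gene, so which 3′ UTR these cells used was not tested. A match describes the sequence only.

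**Figure D1:**
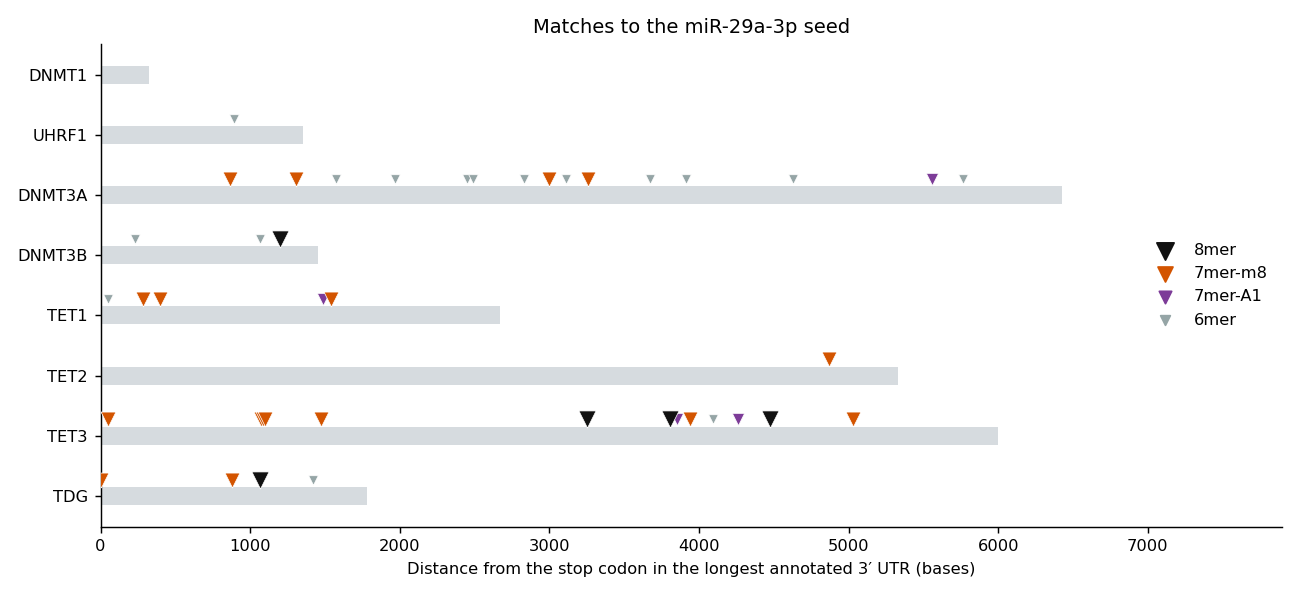
Position of each match to the miR-29a-3p seed (triangles, by kind) along the longest annotated 3′ UTR of the 8 genes (grey bars), with the distance from the stop codon in bases on the horizontal axis. TET3 carries 10 matches of the 8mer or 7mer-m8 kind, DNMT1 carries none of any kind and UHRF1 a single 6mer.

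Expression is given as the FPKM values the authors deposited, which are fragments scaled to transcript length and library size. Depth was estimated at 12221310 to 15614821 fragments a library, and 12021 to 12837 genes reached 1 FPKM. The line markers went against the labels. CDKN2A, a cell cycle inhibitor that A549 cells are known to lack, stood at 27.8 and 28.4 FPKM with miR-29a-3p and 23.8 and 24.8 FPKM in control libraries labelled A549, and at no more than 0.112 FPKM in any library labelled H1299. The summed level of 8 genes known to be abundant in A549 was 201 to 215 FPKM in the libraries labelled A549 and 1250 to 2720 FPKM in those labelled H1299. A549 and H1299 therefore stand below for the libraries labelled so. Of 16 markers of fibroblasts, leukocytes and endothelial cells, 15 stayed at or below 1.67 FPKM in every library. The other, CD68, which tumour cells also express, stood at 22.6 and 19.9 FPKM with miR-29a-3p and 18.5 and 18.5 FPKM in controls in A549, and at 23.5 and 24.9 FPKM with miR-29a-3p and 8.14 and 8.09 FPKM in controls in H1299; its part in the results was not tested.

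The 14635 genes that reached 1 FPKM in 2 or more libraries were tested with limma on log2(FPKM + 1). Calls required an adjusted p under 0.05, by the Benjamini-Hochberg method across these genes. All fold changes below are on this scale, which understates changes of low genes, and all adjusted p-values are limma's. Of the 8 genes, 7 passed the filter. TET1 did not, and its tests come from a fit that admitted genes with at least 0.1 FPKM in 2 libraries.

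The erasers TDG, TET3 and TET2 fell after miR-29a-3p in both lines, whereas DNMT3B and UHRF1 fell in A549 and rose in H1299, where DNMT1 rose too. The call of the UHRF1 fall in A549 was at the threshold and was lost under 15 of 17 alternatives. In A549, 5 of the 7 tested genes fell (TDG, DNMT3B, TET3, TET2 and UHRF1) and 0 rose, where 16.0% of all tested genes were called, 7.30% higher and 8.66% lower. In H1299, 3 of 7 rose (DNMT3B, UHRF1 and DNMT1) and 3 fell (TET3, TDG and TET2), where 50.0% of all genes were called, 25.1% higher and 24.8% lower. The median log2 fold change of the 7 was -0.42 in A549 and 0.13 in H1299, beside a median of 0.00 over all tested genes in each line. The H1299 median is the value of DNMT3A, which lies between the 3 genes that rose and the 3 that fell. The treated and control libraries did not overlap for any of the 8 genes in either line, but nor did they for 59.0% of all tested genes in A549 and 76.0% in H1299. The test of the difference between the lines called 5 of the 7 genes, 1 with a higher log2 fold change in A549 (TET3) and 4 with a lower one (DNMT1, DNMT3A, DNMT3B and UHRF1), where 37.3% of all genes were called, 18.1% higher and 19.2% lower.

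**Figure D2:**
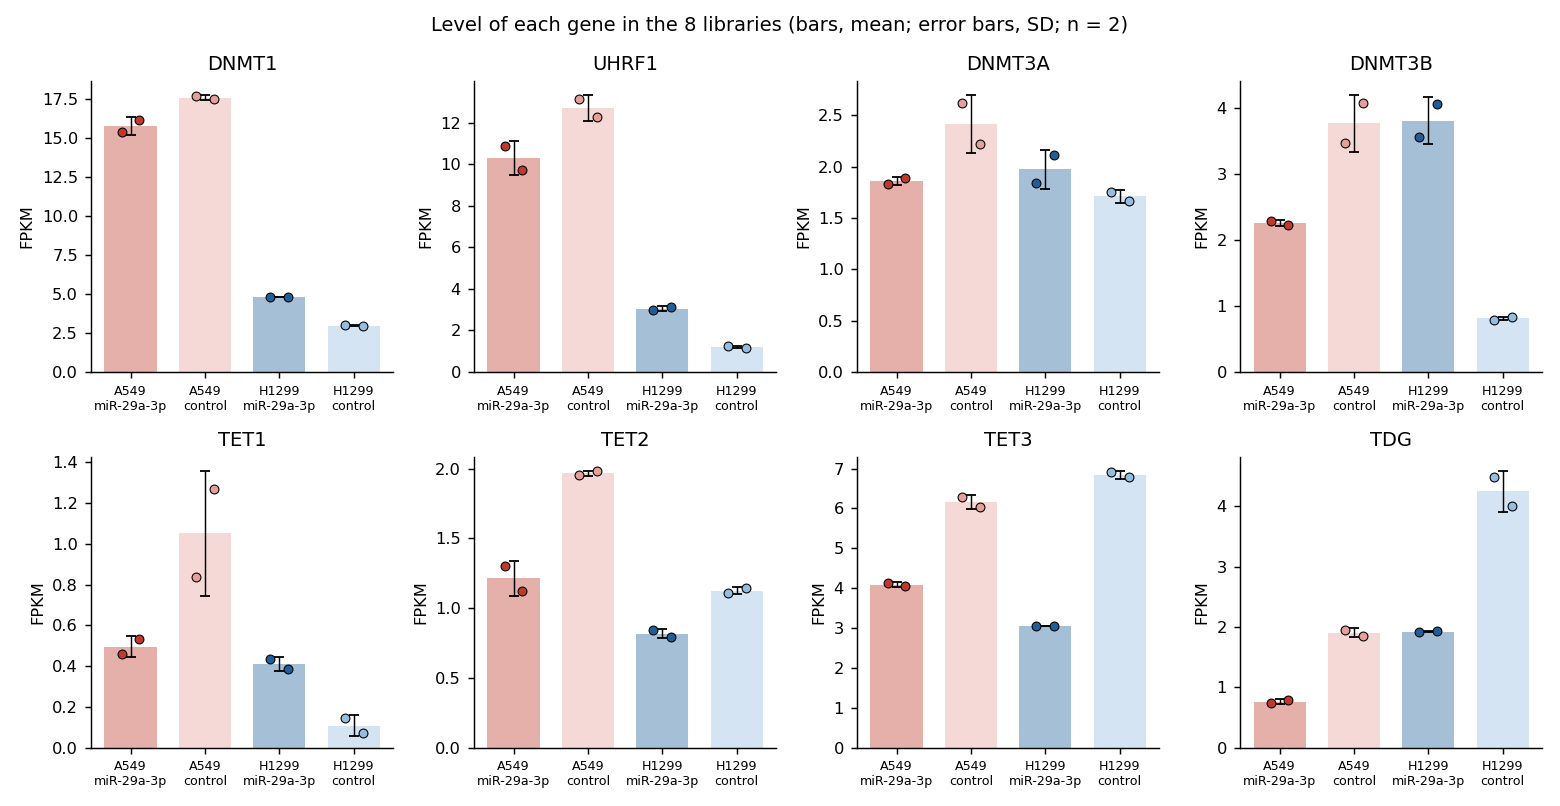
FPKM (vertical axes, each from 0) of the 8 genes in the 4 groups, with each library as a point, the mean as a bar and the SD as an error bar (n = 2). TDG, TET2 and TET3 fell with miR-29a-3p in both lines, while UHRF1 and DNMT3B fell in A549 and rose in H1299. DNMT1 rose in H1299 and was not called in A549, and TET1 and DNMT3A were called in neither line.

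TDG, the glycosylase that completes active demethylation, had the largest fall of the group in A549. It stood at 0.734 and 0.795 FPKM with miR-29a-3p and at 1.96 and 1.86 FPKM in controls, and in H1299 at 1.92 and 1.93 FPKM with miR-29a-3p and at 4.49 and 3.997 FPKM in controls. The treated means were 0.401 times the control mean in A549 and 0.453 times in H1299. The treated H1299 libraries lay within the range of the A549 controls. The log2 fold change was -0.72 ± 0.069 in A549 (SE, adjusted p = 0.00196) and -0.84 ± 0.069 in H1299 (SE, adjusted p = 0.000169). The difference between these responses was 0.12 (95% interval -0.11 to 0.36), which did not pass the test (adjusted p = 0.372). The TDG levels rest on an estimated 48 to 343 fragments a library. TDG has a processed pseudogene, TDGP1, whose fragments may be shared with it. TDGP1 was listed at 0.325 and 0.592 FPKM with miR-29a-3p and 0.893 and 1.53 FPKM in controls in A549, and at 0.21 and 0.417 FPKM with miR-29a-3p and 1.93 and 1.73 FPKM in controls in H1299. How the authors' processing divided the fragments between them was not tested.

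TET3, the most abundant TET messenger in these cells, fell in both lines and more so in H1299. In A549 it stood at 4.14 and 4.05 FPKM with miR-29a-3p and at 6.29 and 6.03 FPKM in controls. In H1299 it stood at 3.05 and 3.05 FPKM with miR-29a-3p and at 6.92 and 6.78 FPKM in controls. The log2 fold change was -0.49 ± 0.051 in A549 (SE, adjusted p = 0.00253) and -0.96 ± 0.051 in H1299 (SE, adjusted p = 3.74e-05). The 2 responses differed by 0.46 (95% interval 0.29 to 0.64, adjusted p = 0.00370), the smaller fall being in A549.

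TET2, an oxidase without a DNA-binding CXXC domain of its own, fell to 1.31 and 1.13 FPKM with miR-29a-3p in A549, against 1.95 and 1.98 FPKM in controls. In H1299 it fell to 0.841 and 0.793 FPKM, against 1.11 and 1.14 FPKM in controls. The log2 fold change was -0.42 ± 0.067 in A549 (adjusted p = 0.0103) and -0.23 ± 0.067 in H1299 (adjusted p = 0.0301). The A549 call was lost without control library 2 (adjusted p = 0.0535). The H1299 call was lost without any 1 of the 4 H1299 libraries (adjusted p = 0.0821 without miR-29a-3p library 1, 0.124 without miR-29a-3p library 2, 0.0849 without control library 1 and 0.110 without control library 2). Over all alternatives its adjusted p ran from 0.00763 to 0.0582 in A549 and from 0.0195 to 0.124 in H1299. The difference between its responses was -0.20 (95% interval -0.42 to 0.03), which did not pass the test.

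TET1, the TET enzyme best known from embryonic stem cells, was the lowest of the group. It stood at 0.459 and 0.531 FPKM with miR-29a-3p and at 0.835 and 1.27 FPKM in controls in A549. In H1299 it stood at 0.437 and 0.387 FPKM with miR-29a-3p and at 0.145 and 0.0705 FPKM in controls, and those control levels rest on an estimated 21 and 8 fragments. The log2 fold change was -0.45 ± 0.11 in A549 (SE, adjusted p = 0.0602) and 0.35 ± 0.11 in H1299 (SE, adjusted p = 0.0529), neither of which was called. The difference between them, -0.80 (95% interval -1.17 to -0.43), was called (adjusted p = 0.0147). Reads of antisense genes could not be told apart from those of the 8 genes, since the sources used here give no strand setting.

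Summed over the 3 enzymes, TET messengers stood at 5.80 ± 0.14 FPKM with miR-29a-3p and 9.18 ± 0.14 FPKM in controls in A549, and at 4.27 ± 0.070 FPKM with miR-29a-3p and 8.08 ± 0.13 FPKM in controls in H1299 (SD, n = 2 each). TET3 made up 65.0% to 72.1% of this sum in every library except the H1299 controls, where it made up 84.7% and 84.8%.

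DNMT3B, which sets new methylation marks and is often raised in tumours, went opposite ways in the lines. In A549 it fell to 2.30 and 2.24 FPKM with miR-29a-3p, against 3.47 and 4.08 FPKM in controls. In H1299 it rose to 3.56 and 4.07 FPKM with miR-29a-3p, against 0.793 and 0.833 FPKM in controls. The treated mean was 0.60 times the control mean in A549 and 4.69 times in H1299. The log2 fold change was -0.55 ± 0.086 in A549 (SE, adjusted p = 0.0101) and 1.41 ± 0.086 in H1299 (SE, adjusted p = 5.93e-05), a difference of -1.95 (95% interval -2.25 to -1.66, adjusted p = 0.000153). The H1299 libraries with miR-29a-3p overlapped the A549 controls in level. The call in A549 was lost without miR-29a-3p library 2 (adjusted p = 0.0539) or control library 2 (adjusted p = 0.0503), and its adjusted p ran from 0.0103 to 0.0539 over all alternatives.

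DNMT3A, the other de novo methyltransferase, passed the test in neither line. In A549 it stood at 1.83 and 1.89 FPKM with miR-29a-3p and at 2.62 and 2.22 FPKM in controls, a log2 fold change of -0.25 (95% interval -0.45 to -0.06, adjusted p = 0.0873). In H1299 it stood at 1.84 and 2.11 FPKM with miR-29a-3p and at 1.76 and 1.67 FPKM in controls, a log2 fold change of 0.13 (95% interval -0.07 to 0.33, adjusted p = 0.230) that ran from 0.067 to 0.20 without 1 library. The difference between these was -0.39 (adjusted p = 0.0412), and this call was lost under 9 of 15 alternatives, with an adjusted p of 0.0318 to 0.118.

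DNMT1, the maintenance methyltransferase, rose in H1299 and was not called in A549. In H1299 it stood at 4.83 and 4.801 FPKM with miR-29a-3p and at 2.98 and 2.95 FPKM in controls, with a log2 fold change of 0.55 ± 0.048 (SE; limma adjusted p = 0.000207). In A549 it stood at 15.3 and 16.1 FPKM with miR-29a-3p and at 17.7 and 17.5 FPKM in controls, a log2 fold change of -0.15 (95% interval -0.27 to -0.03, adjusted p = 0.0855). The difference between the responses was -0.70 (95% interval -0.87 to -0.54, adjusted p = 0.000647).

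UHRF1, which recognises hemimethylated DNA, rose in H1299 as DNMT1 did. In H1299 it rose to 2.97 and 3.13 FPKM with miR-29a-3p, against 1.23 and 1.16 FPKM in controls, and its log2 fold change was 0.88 ± 0.072 (SE; limma adjusted p = 0.000162), at 2.55 times the control mean. In A549 it stood at 10.9 and 9.70 FPKM with miR-29a-3p and at 13.2 and 12.3 FPKM in controls, and its log2 fold change was -0.28 ± 0.072 (SE; limma adjusted p = 0.0454). That A549 call rests at the threshold and was lost under 15 of 17 alternatives, among them leaving out any 1 of the 8 libraries, with an adjusted p of 0.0331 to 0.171 over all alternatives. The difference between the responses was -1.17 (95% interval -1.41 to -0.92, adjusted p = 0.000457).

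**Figure D3:**
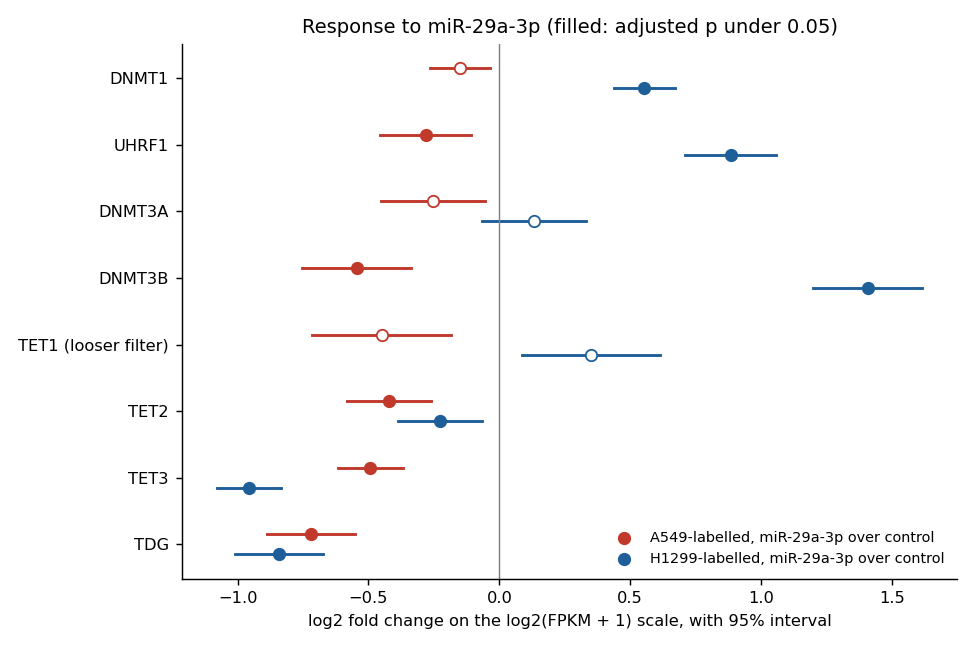
Log2 fold change of each gene on the log2(FPKM + 1) scale (horizontal axis) for miR-29a-3p over control in the A549-labelled (red) and H1299-labelled (blue) libraries, with 95% intervals; filled points passed the test. The 2 lines lie on the same side of 0 for TET2, TET3 and TDG and on opposite sides for the other 5 genes.

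Summed over the 3 methyltransferases, the level was 19.9 ± 0.57 FPKM with miR-29a-3p and 23.8 ± 0.023 FPKM in controls in A549, and 10.6 ± 0.53 FPKM with miR-29a-3p and 5.49 ± 0.058 FPKM in controls in H1299 (SD, n = 2 each). DNMT1 made up 79.2% ± 0.60 of this sum with miR-29a-3p and 73.9% ± 0.65 in controls in A549, and 45.5% ± 2.44 with miR-29a-3p and 54.0% ± 0.13 in controls in H1299 (SD, n = 2 each).

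Both DNMT1 and UHRF1 are known to be made mainly in cells that copy their DNA, so 16 DNA replication genes were set beside them. All 16 rose with miR-29a-3p in H1299 (25.1% of all tested genes rose), with a median log2 fold change of 1.41, and 7 fell and 0 rose in A549 (8.66% of all tested genes fell), with a median of -0.21. RRM2, a subunit of ribonucleotide reductase, stood at 9.64 ± 0.42 FPKM with miR-29a-3p and 0.739 ± 0.096 FPKM in controls in H1299, and at 11.8 ± 0.22 FPKM with miR-29a-3p and 16.7 ± 0.79 FPKM in controls in A549 (SD, n = 2 each). PCNA, the sliding clamp that binds DNMT1, stood at 339.6 ± 7.75 FPKM with miR-29a-3p and 81.4 ± 7.26 FPKM in controls in H1299 (SD, n = 2 each), and its log2 fold change in A549 was -0.31 (adjusted p = 0.0372). The MCM4 helicase subunit rose by 1.95 in H1299, and in A549 the replication factor GINS2 and the helicase subunit MCM2 fell by 0.72 and 0.37 on the log2 scale. In these bulk libraries a change in the share of replicating cells and a change in RNA per cell cannot be told apart, and the part of either in the levels of DNMT1 and UHRF1 was not tested.

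**Figure D4:**
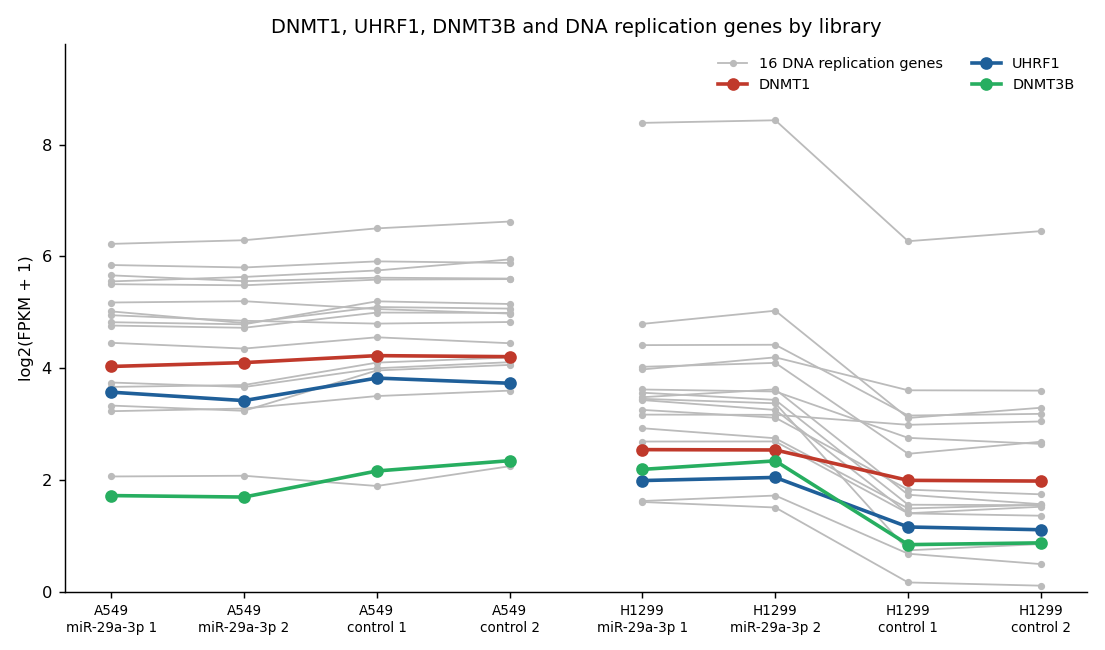
Log2(FPKM + 1) of DNMT1, UHRF1 and DNMT3B (coloured) and of the 16 DNA replication genes (grey) in each library along the horizontal axis, with lines joining the libraries labelled with 1 line. In the H1299-labelled libraries DNMT1, UHRF1 and DNMT3B are higher with miR-29a-3p, as are the 16 replication genes.

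The promoters of DNMT1 and UHRF1 are shown because both genes rose with the replication genes in H1299, and the motif was chosen with those values known. Each window runs from 250 bases before to 50 bases after a gene start (RefSeq, GRCh38.p14), and capitals mark a match to the consensus of the E2F factors that drive replication genes, searched as TTTCGCGC and TTTGGCGC on both strands. Each window printed holds 1 match, with no overlap of another.
DNMT1 promoter (chr19:10194904-10195203, minus strand): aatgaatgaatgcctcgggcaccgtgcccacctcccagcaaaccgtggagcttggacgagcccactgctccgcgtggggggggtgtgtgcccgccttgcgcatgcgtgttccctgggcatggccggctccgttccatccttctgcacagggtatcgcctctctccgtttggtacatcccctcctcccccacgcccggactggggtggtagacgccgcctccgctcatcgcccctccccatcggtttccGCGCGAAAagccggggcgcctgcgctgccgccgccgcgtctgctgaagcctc
UHRF1 promoter (chr19:4909894-4910193, plus strand): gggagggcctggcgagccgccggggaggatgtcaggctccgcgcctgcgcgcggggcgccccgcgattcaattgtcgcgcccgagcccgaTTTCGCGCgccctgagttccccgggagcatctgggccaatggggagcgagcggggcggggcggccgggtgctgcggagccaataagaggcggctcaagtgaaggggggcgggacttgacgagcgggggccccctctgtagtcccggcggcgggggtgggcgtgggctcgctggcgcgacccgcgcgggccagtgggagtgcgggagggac
UHRF1 has 3 windows, at starts annotated in RefSeq, and 1 of them holds a match. Of the 8 genes, these 2 held a match in any window searched, against 1.40% of all 27305 genes with a promoter window and 6 of the 13 replication genes that have one. Because the motif was chosen with the expression values known, these counts are not a test of enrichment. A match describes the sequence only, and a part of E2F factors in the levels of these genes was not tested. The only windows of DNMT3B and DNMT1 and all 3 of UHRF1 lie inside the genes as annotated in GENCODE. They are downstream of the first annotated starts there, so those starts were not searched. The DNMT1 window holds 30 CG pairs and the UHRF1 window 40.

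Without miR-29a-3p, the control libraries of the lines differed in most of these genes. DNMT1 was 5.93 times and UHRF1 10.6 times as high in A549 controls as in H1299 controls by the ratio of means, with log2 fold changes of 2.23 ± 0.048 (adjusted p = 1.65e-07) and 2.64 ± 0.072 (adjusted p = 3.76e-07). DNMT3B was 4.64 times and TET2 1.75 times as high in A549 controls, while TDG was 0.449 times as high. Of the 7 tested genes, 5 were higher and 1 was lower in A549 controls than in H1299 controls, where 74.8% of all genes were called, 45.0% higher and 29.8% lower. The exception was TET3, with a log2 fold change of -0.13 (adjusted p = 0.0514), which was called lower with libraries rescaled (-0.32, adjusted p = 0.0014). The median of all tested genes in this comparison was 0.01 with that rescaling and 0.17 as deposited. It also ended the call of DNMT3A, whose log2 fold change was 0.33 as deposited (adjusted p = 0.00961) and 0.19 rescaled (adjusted p = 0.0821). That call was also lost without A549 control library 1 (0.25, adjusted p = 0.0511), and its adjusted p ran from 0.00804 to 0.0821 over all alternatives. Across the 4 groups, DNMT1, UHRF1 and TET1 shared 1 order from high to low, A549 control, A549 with miR-29a-3p, H1299 with miR-29a-3p and H1299 control, and no neighbours in it overlapped. TET3 ran from H1299 control through A549 control and A549 with miR-29a-3p down to H1299 with miR-29a-3p, again without overlap. For TET2 the middle pair, A549 with miR-29a-3p and H1299 control, overlapped. For TDG the middle pair was H1299 with miR-29a-3p and A549 control, and for DNMT3A it was H1299 with miR-29a-3p and A549 with miR-29a-3p, and both pairs overlapped.

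Averaged over the lines, with the line as a covariate, TDG, TET3 and TET2 fell and no other gene of the group was called. The log2 fold changes were -0.78 ± 0.064 for TDG (SE, adjusted p = 0.00128), -0.72 ± 0.10 for TET3 (SE, adjusted p = 0.00697) and -0.32 ± 0.070 for TET2 (SE, adjusted p = 0.0296). In this comparison 11.0% of all tested genes were called, 5.01% higher and 6.04% lower. The TET3 call was lost with the replicate block (adjusted p = 0.0746), and its adjusted p ran from 0.00476 to 0.0746 over all alternatives. The TET2 call was lost when any 1 of the 8 libraries was left out (adjusted p = 0.0594 to 0.0799), and its adjusted p ran from 0.0269 to 0.139 over all alternatives.

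The other genes of the pathway were read by list, beside the shares of all tested genes called, 16.0% in A549 and 50.0% in H1299. Among cofactors and recruiters of the writers, 0 of 9 tested genes were called in A549, while in H1299 4 rose and 1 fell. HELLS, a remodelling factor that opens DNA to DNMT3B, stood at 1.88 ± 0.088 FPKM with miR-29a-3p and 0.796 ± 0.075 FPKM in controls in H1299, and its partner CDCA7 at 4.65 ± 0.34 FPKM with miR-29a-3p and 1.59 ± 0.51 FPKM in controls (SD, n = 2 each). EHMT2, a histone methyltransferase, rose by 0.51 (adjusted p = 0.00294). UHRF2, the paralogue of UHRF1, fell by 0.47 on the log2 scale in H1299 (adjusted p = 0.0155), where UHRF1 rose, and had a log2 fold change of -0.04 in A549 (adjusted p = 0.849). DNMT3L, the inactive partner of the de novo enzymes, was not analysed here.

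Genes of the families that read methylated CG pairs were called in both directions. In A549 1 of 7 rose (ZBTB4) and 1 fell (MBD3, listed by its family), and in H1299 2 rose and 3 fell, MBD3 among them. MBD3, a subunit of the NuRD complex, fell to 10.8 ± 0.58 FPKM with miR-29a-3p in A549, against 14.3 ± 0.91 FPKM in controls, and to 4.02 ± 0.051 FPKM in H1299, against 7.47 ± 0.097 FPKM in controls (SD, n = 2 each). ZBTB4, a zinc finger reader, rose by 0.25 in A549 (adjusted p = 0.0134).

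Among partners of the TET enzymes and suppliers of their cofactor, 2 of 5 tested genes rose and 1 fell in A549, and 2 rose and 2 fell in H1299. IDH2, the mitochondrial enzyme that makes the 2-oxoglutarate TET enzymes need, stood at 2.50 ± 0.0023 FPKM with miR-29a-3p and 3.54 ± 0.29 FPKM in controls in A549, and at 12.1 ± 0.17 FPKM with miR-29a-3p and 3.73 ± 0.26 FPKM in controls in H1299 (SD, n = 2 each). GADD45B, a stress protein linked to demethylation, went the other way, with log2 fold changes of 0.44 in A549 (adjusted p = 0.0113) and -1.41 in H1299 (adjusted p = 3.16e-05). CXXC5, which is known to bind TET2, lay under the filter, at 0.19 and 0.0813 FPKM with miR-29a-3p and 0.289 and 0.203 FPKM in controls in A549. In H1299 it stood at 1.01 and 0.984 FPKM with miR-29a-3p and 0.768 and 0.762 FPKM in controls.

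Of 10 tested genes of base excision repair, 0 were called in A549, where 16.0% of all tested genes were called. In H1299 4 rose and 2 fell, where 50.0% of all tested genes were called. The glycosylase NEIL3 stood at 4.14 ± 0.62 FPKM with miR-29a-3p and 0.859 ± 0.20 FPKM in H1299 controls, and UNG, which removes uracil, at 10.9 ± 0.096 FPKM with miR-29a-3p and 3.81 ± 0.57 FPKM in controls (SD, n = 2 each). PARP1, a sensor of strand breaks, stood at 17.4 ± 0.37 FPKM with miR-29a-3p and 10.1 ± 0.24 FPKM in H1299 controls (SD, n = 2 each). MBD4, a glycosylase that acts on the same mismatches as TDG, had log2 fold changes of -0.35 in A549 (adjusted p = 0.0579) and 0.12 in H1299 (adjusted p = 0.353). Of 4 tested cytosine deaminases, 1 rose and 1 fell in A549 and 4 rose in H1299. APOBEC3B, a deaminase that mutates DNA in tumours, stood at 6.71 ± 0.20 FPKM with miR-29a-3p and 1.37 ± 0.11 FPKM in H1299 controls (SD, n = 2 each), though fragments may be shared within its family.

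Of 10 tested genes of the methyl donor cycle, 1 rose and 2 fell in A549, and 4 rose and 2 fell in H1299. MAT2A, which makes the methyl donor S-adenosylmethionine, stood at 64.7 ± 2.04 FPKM with miR-29a-3p and 76.1 ± 5.69 FPKM in controls in A549, and at 56.4 ± 0.29 FPKM with miR-29a-3p and 47.8 ± 1.18 FPKM in controls in H1299, where it rose (SD, n = 2 each).

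**Figure D5:**
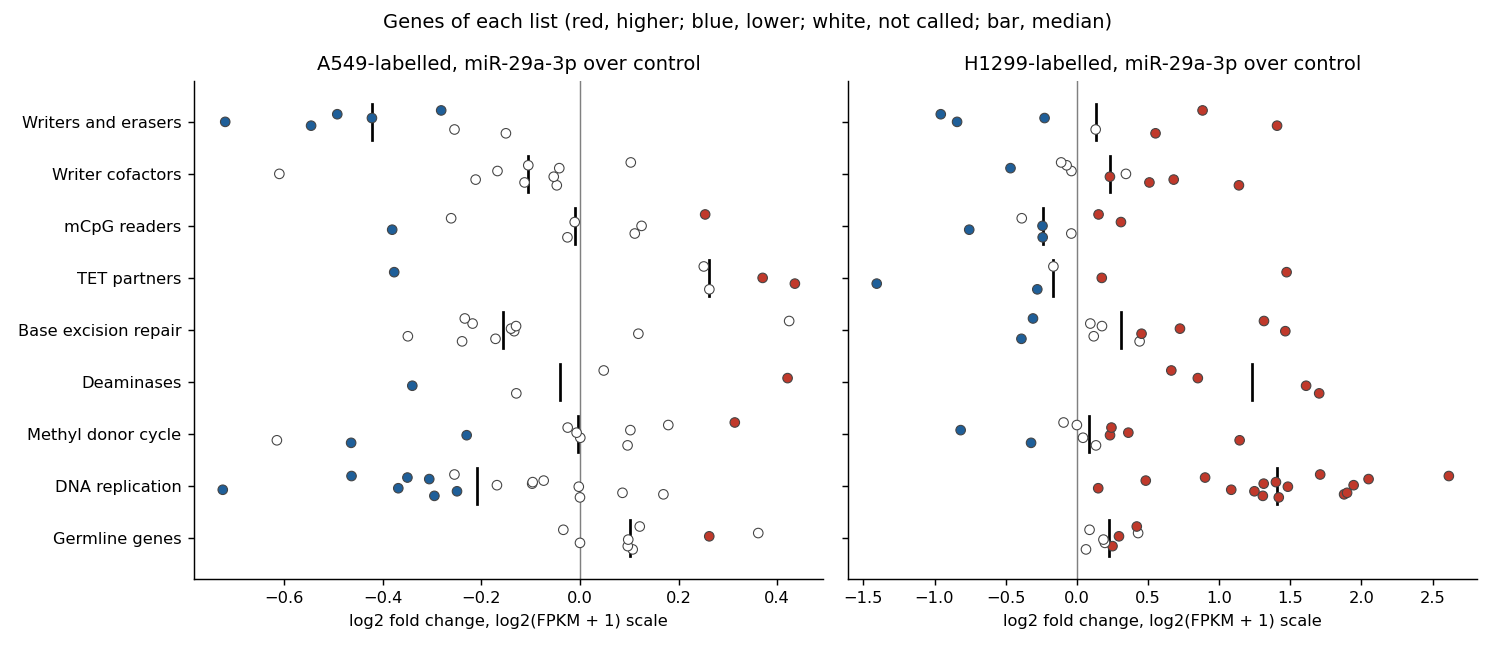
Log2 fold change on the log2(FPKM + 1) scale (horizontal axes, which differ in range) of the tested genes of each list for miR-29a-3p over control in the A549-labelled (left) and H1299-labelled (right) libraries; red points rose, blue points fell, white points were not called and black bars are medians. The replication genes have a median of -0.21 in A549 and 1.41 in H1299.

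The pattern of each gene over the 8 libraries was compared with those of 6082 other genes that averaged at least 5 FPKM. The closest to TDG was LOXL2, a collagen cross-linking enzyme (Pearson r = 0.997), followed by GNAQ and RTL6. The closest to TET3 were SSR2, PAFAH1B1 and SLC16A1 (r = 0.989 to 0.994), to TET2 TRAK2, FSCN1 and SERBP1P6 (0.987 to 0.989) and to DNMT3B SMARCA1, TAF13 and DCBLD2 (0.982 to 0.989). DNMT1 was closest to HAUS5, PI4K2B and CHAF1A, the last a subunit of the replication-coupled histone chaperone, and UHRF1 to TUBA1B, PIK3R4 and TUBB4B (0.999 for each of these 6). The values of DNMT3A were 0.896 to 0.941, for SLC39A6, LRRC8A and PAPSS2. Between DNMT1 and UHRF1 themselves r was 0.994, and between DNMT1 and TDG it was -0.775. All these values describe 8 libraries that share 4 groups, so a difference between the lines alone can give a high r.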

How the data were processed

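RNA was measured in 8 libraries, 2 for each of 4 groups, and the labels' protocols name TRIzol extraction and a VAHTS library kit. The table that the authors deposited holds FPKM values, per the file headers. StringTie and the build GRCh38 are named in the submitters' processing notes, and the sources used here name no aligner, version, annotation or strand setting. The 2 blocks of the table, 27756 genes for A549 and 28609 for H1299, were joined by gene identifier, and a gene listed for 1 line was set to 0 in the other.

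The 14635 genes that reached 1 FPKM in 2 or more libraries entered a limma fit (version 3.58.1, R 4.3.3) of log2(FPKM + 1) to 4 group means, with a variance trend and Benjamini-Hochberg adjustment. The residual degrees of freedom were 4 and the prior 2.37 (5 and 2.44 for the average over lines, fitted with the line as a covariate). No label says whether replicates are separate cultures, so the p-values reflect only library-to-library spread, possibly technical. Replicates shared no identical value above 0 and differed by a median chi-square of 0.479 to 0.521 per gene on estimated fragments, near the 0.455 that sampling alone gives, in every group alike, and each was kept.

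Depth was estimated from the FPKM worth of 1 fragment for low genes and GENCODE release 29 exon lengths, which matched 31105 of 31461 identifiers. Of the low and moderate values, 38.2% to 42.1% came out whole within 0.02, so fragment numbers are estimates and no count test was run.

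The 8 genes and all lists were chosen with earlier results of these data known. Named genes from the lists are, per line, up to 3 called genes of largest change whose treated and control libraries did not overlap and that reached 1 FPKM in either group, plus UHRF2, DNMT3L, MBD4, HELLS, CXXC5 and PCNA, and the 3 genes with the most alike pattern. TDGP1, MAGEA1, CD68 in A549 and MAT2A and MAGEA4 in H1299 fall outside this rule and were added with their values known, and some genes that the rule names are not reported here. Alternatives varied the pseudocount, the filter, the scaling, the trend, the replicate block, the libraries and the fit of each line alone.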

Additional observations from a re-analysis of the deposited data

Results flagged for a closer look

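The response to miR-29a-3p differed between the lines for 5 of the 7 tested genes by the test of the difference itself (A549 minus H1299, limma), where 37.3% of all tested genes were called. The difference in log2 fold change was -0.70 for DNMT1, -0.39 for DNMT3A, -1.95 for DNMT3B and -1.17 for UHRF1. DNMT3B and UHRF1 fell in A549 and rose in H1299, DNMT1 rose in H1299 and was not called in A549, and DNMT3A was called in neither line. The difference was 0.46 for TET3, which fell in both lines. The DNMT3A difference lost its call under 9 of 15 alternatives. In A549 the fall of UHRF1 lost its call under 15 of 17 alternatives and that of DNMT3B under 3 of 16. The lines are those of the labels, which the line markers contradict.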

How the results depend on the processing

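TDG and TET3 kept their direction and call in each line under every alternative run, as did DNMT1, UHRF1 and DNMT3B in H1299. Some calls near the threshold were lost. In A549 this was so under 15 of 17 alternatives for UHRF1, 3 of 16 for DNMT3B and 2 of 16 for TET2. The TET2 call in H1299 was lost under 6 of 16, and the call of the DNMT3A difference under 9 of 15. In A549 the genes called over all genes numbered 2336, against 1261 with the replicate block, 1071 with the line fitted alone and 1045 to 1968 without 1 library, and the members called numbered 5, against 2 with the line fitted alone and 2 to 4 without 1 library. Averaged over lines, 1617 genes were called, against 841 with no filter, 85 with the replicate block and 537 to 1152 without 1 library, and 3 members, against 1 with the block and 2 without any 1 library. A mean of at least 5 FPKM left 3 members to test, of which 2 were called in A549, 3 in H1299, 3 for the difference, 2 between controls and 1 on average. It left 3773, 2984 and 4923 genes called in H1299, for the difference and between controls, where 6082 genes outside the group averaged at least 5 FPKM. Such shares of all genes are high, so the counts of these 3 members are not read as a result about the group. Between controls 9932 to 10783 genes were called without 1 library. The difference in response of TDG, 0.12, was -0.12 with a pseudocount of 0.1 (adjusted p = 0.571). The average change of DNMT3A, -0.06, ran from -0.126 to 0.0113 without 1 library and was above 0 only without A549 control library 1 (adjusted p = 0.942). Neither was called, and the cause was not tested. Same-numbered libraries did not deviate together (correlations of 0.018 in A549 and -0.011 in H1299). Replicates differed by little more than sampling gives, so this check could hardly show a pairing. Whether replicate numbers pair the libraries is not known. The low depth of TET1 limits its test.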

Other observations

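Genes that DNA methylation is known to silence outside the germline were read in the same libraries. Of 8 tested germline genes, 1 rose and 0 fell with miR-29a-3p in A549, where 7.30% of all genes rose, and 3 rose and 0 fell in H1299, where 25.1% rose. The H1299 count includes MAGEA1 and MAGEA4, which stayed at or below 0.434 FPKM in every H1299 library and passed the filter only through the A549 libraries, so it does not describe the list. MAGEA4 stood at 159 ± 4.02 FPKM with miR-29a-3p and 132 ± 3.06 FPKM in controls in A549 (SD, n = 2 each, adjusted p = 0.0297), and XAGE1A at 39.3 ± 1.31 FPKM with miR-29a-3p and 29.1 ± 1.69 FPKM in controls in H1299 (SD, n = 2 each, adjusted p = 0.00629). Both belong to families with near-identical copies, so these values are uncertain.

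Of 6 tested imprinted genes, 1 rose and 1 fell in A549, and 2 rose and 1 fell in H1299. Of all tested genes, 16.0% were called in A549 and 50.0% in H1299. PHLDA2, a growth-restraining placental gene, stood at 69.1 ± 3.83 FPKM with miR-29a-3p and 51.7 ± 0.62 FPKM in controls in A549, and at 17.5 ± 0.56 FPKM with miR-29a-3p and 12.4 ± 1.18 FPKM in controls in H1299 (SD, n = 2 each). MEG3, an imprinted non-coding RNA, stood at 6.30 ± 0.19 FPKM with miR-29a-3p and 2.30 ± 0.18 FPKM in controls in H1299 (SD, n = 2 each). The imprinted gene that fell was MEST in both lines. Its log2 fold change was -0.49 in A549 (limma adjusted p = 0.00555) and -0.32 in H1299 (limma adjusted p = 0.00651). DNA methylation itself was not measured.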
